A study of Mus musculus with 8 samples.

Results

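The platelet-derived growth factor (PDGF) genes comprise 4 ligands, Pdgfa, Pdgfb, Pdgfc and Pdgfd, and 2 receptors, Pdgfra and Pdgfrb. They were taken by symbol from the gene table, in which each has 1 row, and are 6 of 31053 genes. PDGF ligands act as dimers on receptor tyrosine kinases. PDGF-A and PDGF-C dimers bind mainly the alpha receptor, PDGF-B binds both receptors, and PDGF-D binds mainly the beta receptor. In skin and tumours the alpha receptor is best known from fibroblasts and the beta receptor from pericytes, vascular smooth muscle and activated fibroblasts, and endothelial PDGF-B is known for recruiting pericytes to vessels.

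The libraries are droplet single-cell RNA profiles of 8 subcutaneous B16F10 melanomas of about 300 mm3, grown in C57BL/6 hosts that the labels give as 12 weeks old. B16F10 is an established mouse melanoma line, injected unedited, so the tumour cells of every sample kept Atf4. Both host groups carried Rosa26::CreERT2, a tamoxifen-induced recombinase expressed in all tissues, and both received tamoxifen: 4 hosts were Atf4 WT/WT and 4 carried floxed Atf4 alleles excised to Atf4 Δ/Δ. The tumours came from 2 males and 2 females in the first group and from 3 males and 1 female in the second. The study asked what host Atf4, a stress-response transcription factor, does to the tumour stroma, and the comparisons below ask which cells carried RNA for PDGF ligands and receptors and whether that differed with the host genotype.

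After filtering, 28411 cells of 41925 barcodes remained, with 37283598 to 74942137 unique molecular identifiers (UMIs) per library before filtering. Clustering, with the 6 genes left out of the clustering genes, gave 23682 melanoma-like cells, 730 cells like cancer-associated fibroblasts (CAF-like: fibroblasts and mural cells), 898 immune cells and 36 endothelial-like cells, while 2823 low-RNA cells stayed unnamed and 242 cells of a cluster mostly from 1 library were removed. CAF-like cells numbered from 10 in Atf4 Δ/Δ replicate 3 to 241 in Atf4 Δ/Δ replicate 4, and values from replicate 3 rest on few UMIs. Levels are given as CPM, the UMIs of a gene in each 1e+06 UMIs of the same cells. Tags come from the 3′ end, so levels are compared between cells and not between genes. At most 14 barcodes were shared by any pair of libraries. Atf4 itself, read as a check of the labels, was between 278 and 323 CPM in CAF-like cells of the 4 Atf4 WT/WT tumours and between 90.0 and 171 CPM in those of the 4 Atf4 Δ/Δ tumours, without overlap (log2 difference −1.30 ± 0.20 SE, adjusted p = 0.0375).

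By annotation on GRCm38, Pdgfa (ENSMUSG00000025856) lies at chr5:138976014-138997370 on the minus strand and Pdgfra (ENSMUSG00000029231) at chr5:75152292-75198215 on the plus strand. Pdgfb (ENSMUSG00000000489) lies at chr15:79995874-80014977 on the minus strand, Pdgfc (ENSMUSG00000028019) at chr3:81036416-81214040 and Pdgfd (ENSMUSG00000032006) at chr9:6168584-6378850, both on the plus strand. Pdgfrb is ENSMUSG00000024620.

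The 250 bases before the RefSeq starts of Pdgfa and Pdgfra are shown because Pdgfa was the ligand with most UMIs and was highest in clusters led by genes known to respond to low oxygen (below), and Pdgfra is the receptor that separated fibroblasts from mural cells. They are written 5′ to 3′ on the strand of the gene (GRCm38.p6). Capitals mark the core of the hypoxia response element, searched as ACGTG and GCGTG on both strands. Within CACGTG both strands match ACGTG.

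Pdgfa, chr5:138994945-138995194: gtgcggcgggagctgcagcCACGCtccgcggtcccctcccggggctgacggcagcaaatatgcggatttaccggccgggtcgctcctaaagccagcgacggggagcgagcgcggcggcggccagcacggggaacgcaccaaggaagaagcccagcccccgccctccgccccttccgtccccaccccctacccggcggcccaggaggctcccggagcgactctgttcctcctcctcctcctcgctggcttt
Pdgfa, chr5:138994282-138994531: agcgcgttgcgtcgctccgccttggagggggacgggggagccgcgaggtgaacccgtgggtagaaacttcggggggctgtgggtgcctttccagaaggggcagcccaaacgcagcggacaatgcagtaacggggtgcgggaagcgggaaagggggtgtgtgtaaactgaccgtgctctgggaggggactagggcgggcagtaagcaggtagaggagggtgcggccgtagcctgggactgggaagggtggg
Pdgfra, chr5:75152001-75152250: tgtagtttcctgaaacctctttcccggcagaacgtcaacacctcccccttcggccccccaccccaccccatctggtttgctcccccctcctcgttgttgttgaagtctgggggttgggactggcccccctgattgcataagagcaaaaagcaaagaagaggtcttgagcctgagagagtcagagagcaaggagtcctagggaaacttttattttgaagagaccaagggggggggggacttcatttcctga

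The first Pdgfa window held 1 match, 231 bases before the start, and the second Pdgfa window and the Pdgfra window held 0. At least 1 of the 2 spellings was present in 38.6% of the 32851 windows of 250 bases in the RefSeq table, so a match is frequent. TGATGNAAN, the composite element of C/EBP and ATF factors, had no match in the windows of Pdgfa, Pdgfc, Pdgfd and Pdgfra, and was present in 3.44% of all windows.

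Among the ligands, Pdgfa RNA was present in melanoma-like, CAF-like and immune cells, Pdgfb RNA was found chiefly in endothelial-like and immune cells, Pdgfc RNA in CAF-like and immune cells, and Pdgfd RNA in CAF-like cells and, from 4 UMIs, endothelial-like cells. Among the receptors, Pdgfra RNA was almost wholly in CAF-like cells and Pdgfrb RNA was highest in them. Against melanoma-like cells of the same tumours, 5 members could be tested in CAF-like cells and all 5 were higher, where 26.9% of 13325 genes were higher, 29.9% lower and 56.8% called in either direction. Pdgfc, Pdgfd and Pdgfra reached at most 0.101, 0.164 and 0.312 CPM in any melanoma-like sum. They passed the count filter only through CAF-like cells, so for them the direction was fixed by the filter. Against immune cells 3 could be tested, Pdgfa, Pdgfra and Pdgfrb, and all 3 were higher in CAF-like cells, where 25.3% of 6340 genes were higher, 22.8% lower and 48.1% called. Pdgfra and Pdgfrb, with 0 and 1 UMI in immune cells, likewise passed the filter only through CAF-like cells. Of 4 members tested between immune and melanoma-like cells, Pdgfb and Pdgfc were higher in immune cells, where 21.9% of 12936 genes were higher, 26.5% lower and 48.4% called. Both passed the filter only through immune cells, with at most 0.0822 and 0.101 CPM in any melanoma-like sum.

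**Figure D1:**
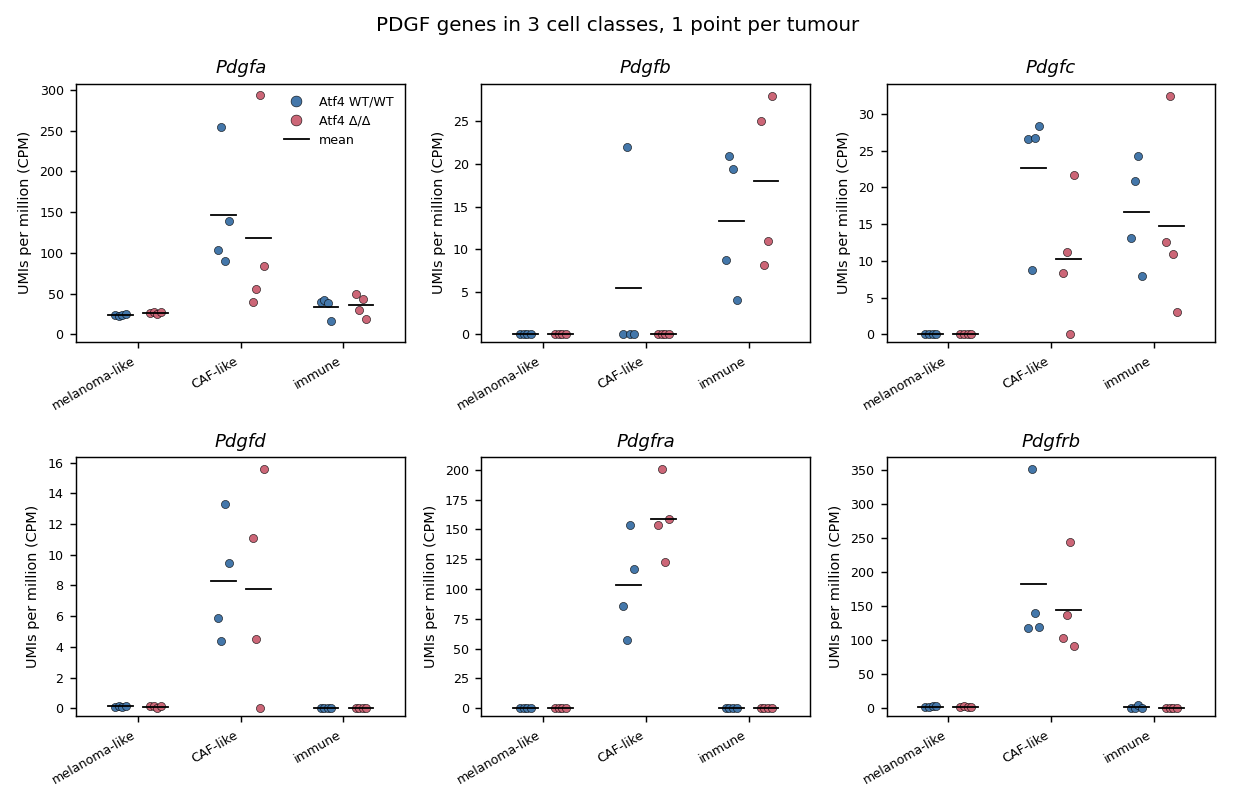
Levels of the 6 genes (y axis, CPM, linear) in melanoma-like, CAF-like and immune cells. Each point is 1 tumour, the line is the mean of 4, and colours give the host genotype; Pdgfra lay at 0 in immune cells of all 8 tumours and between 57.1 and 200 CPM in CAF-like cells.

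Pdgfa was the ligand of which melanoma-like cells held most molecules: 6472 UMIs, 92.0% of those in the 28169 cells left after the removal, came from these cells, at 25.3 ± 2.07 CPM (SD, n = 8 tumours). It was 23.7, 22.1, 23.4 and 25.7 CPM in the melanoma-like cells of Atf4 WT/WT tumours 1 to 4 and 26.2, 28.1, 25.3 and 27.4 CPM in those of Atf4 Δ/Δ tumours 1 to 4. The spread over all 8 tumours was thus small. CAF-like cells carried a higher level, 103, 255, 90.0 and 139 CPM in the Atf4 WT/WT tumours and 40.2, 56.3, 294 and 83.9 CPM in the Atf4 Δ/Δ tumours, and every tumour was above its melanoma-like cells. The difference was 2.03 ± 0.19 (SE) on the log2 scale in edgeR's quasi-likelihood test with the tumour as a block (adjusted p = 6.9e-12), and 1.63 ± 0.26 against immune cells (adjusted p = 6.8e-06). CAF-like cells, fewer in number, held 5.03% of the Pdgfa UMIs of the same 28169 cells. Melanoma markers in CAF-like cells were at 7.25 to 33.2% of their level in melanoma-like cells of the tumour, and RNA in that proportion would hold 21.9 of the 354 Pdgfa UMIs. In immune cells Pdgfa stood at 31.2 CPM (56 UMIs), not distinguishable from melanoma-like cells (log2 difference 0.36 ± 0.24, adjusted p = 0.21), with 11.3 of the 56 expected from melanoma RNA.

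Pdgfb, the ligand through which endothelium is known to act on pericytes, gave only 63 UMIs in all. Endothelial-like cells held 18 of them in 36 cells, 171 CPM, against 14.5 CPM in immune cells (26 UMIs), 1.29 CPM in CAF-like cells (5 UMIs) and 0.0506 CPM in melanoma-like cells (13 UMIs). The pooled level in endothelial-like cells was 11.8 times that in immune cells (95% counting interval 6.11 to 22.4). Only 1 tumour had 10 or more endothelial-like cells, so this has no replicate test, and such intervals cover counting error only. Immune cells were higher than melanoma-like cells by 7.97 ± 0.60 on the log2 scale (adjusted p = 4.9e-22). Platelets store PDGF-B, and of the 6 platelet markers Gp1bb, Gp9 and Itga2b were at 0 in immune cells, with Ppbp at 3 and Treml1 at 1 UMI. Pf4, which macrophages also express, had 2544. The summed platelet list ranged from 878 to 1488 CPM in Atf4 WT/WT and from 1068 to 2087 CPM in Atf4 Δ/Δ immune cells, and its part in the Pdgfb level was not tested beyond the markers at 0.

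Pdgfc, a ligand released by proteolysis, was 26.6, 8.79, 26.7 and 28.4 CPM in CAF-like cells of the Atf4 WT/WT tumours and 8.33, 11.3, 0 and 21.7 CPM in the Atf4 Δ/Δ tumours, so the groups overlapped. CAF-like cells exceeded melanoma-like cells by 8.13 ± 0.46 on the log2 scale (adjusted p = 3.7e-18), and immune cells did so by 7.95 ± 0.60 (adjusted p = 3.4e-22). Of 31 Pdgfc UMIs in immune cells, 24 were in the 209 TAM-like cells (like tumour-associated macrophages, led by C1qa, Stab1 and Ms4a7), at 44.2 CPM. The 243 immune cells led by Chil3 and Ly6c2, genes of monocytes, held 0 Pdgfc and 0 Pdgfa UMIs. Set at 3 counts, as in all such limits here, this allows up to 10.8 CPM of each. The 194 cells led by Arg1 had Pdgfa at 70.7 CPM (20 UMIs). Pdgfd gave 43 UMIs in CAF-like cells, 11.1 CPM, 28 in melanoma-like cells, 0.109 CPM, and 0 in immune cells. The 36 endothelial-like cells held 4, 38.1 CPM (95% counting interval 10.4 to 97.5), from 3 tumours, and the ratio to CAF-like cells was 3.42 (0.893 to 9.42). CAF-like cells were higher than melanoma-like cells by 6.17 ± 0.48 (adjusted p = 3.9e-14), and at least 6.66-fold higher than immune cells with the latter set at 3 counts over the group.

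Pdgfra, the receptor that marks fibroblasts, was in CAF-like cells with 564 of 611 UMIs, 92.3%. It was 85.7, 57.1, 153 and 117 CPM in Atf4 WT/WT CAF-like cells and 154, 200, 122 and 158 CPM in Atf4 Δ/Δ CAF-like cells. Immune cells of all 8 tumours were at 0, so CAF-like cells were at least 87.3-fold higher with a floor of 3 counts over the group. Melanoma-like cells were at 0.175 CPM, and the 45 UMIs there compare with 58.8 expected if their fibroblast-marker RNA came from CAF-like cells. The CAF-like minus melanoma-like difference was 9.45 ± 0.20 on the log2 scale (adjusted p = 2.7e-32).

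Pdgfrb was 118, 352, 140 and 120 CPM in CAF-like cells of the Atf4 WT/WT tumours and 103, 137, 245 and 91.4 CPM in those of the Atf4 Δ/Δ tumours. Atf4 WT/WT replicate 2 stood far above the others. It exceeded melanoma-like cells by 6.14 ± 0.20 on the log2 scale (adjusted p = 1.0e-25). Immune cells held 1 UMI, so the ratio of CAF-like to immune cells was 223 with a counting interval of 39.8 to 8824. Melanoma-like cells were at 2.14 ± 0.71 CPM (SD, n = 8), and through their number held 530 Pdgfrb UMIs against 480 in CAF-like cells. From fibroblast-marker RNA 73.8 UMIs would be expected there, and from mural-marker RNA 788, for the 437 found in the 7 tumours with mural-like cells. The mural list includes Cspg4, a gene of pericytes and melanoma cells, so any Cspg4 RNA made by melanoma cells raises the 788. The part of fibroblast and mural RNA in the Pdgfrb level of melanoma-like cells was not tested.

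Within the CAF-like cells, 5 subclusters were found: 338 cells led by Lrrc15, 184 led by Pgf, Ndrg1 and Ero1l, 73 adventitial-like cells with Pi16, Clec3b and Ptx3, 55 mural-like cells with Rgs5, Kcnj8, Abcc9 and Notch3, and 80 cells that also carried melanoma markers. The receptors split along them. Mural-like cells had Pdgfrb at 560 CPM and 0 Pdgfra UMIs in 55 cells, which allows up to 17.9 CPM, while adventitial-like cells had Pdgfra at 421 CPM and Pdgfrb at 87.3 CPM. Pdgfra was thus at least 23.6-fold higher in adventitial-like than in mural-like cells, and Pdgfrb was 6.42 times higher in mural-like cells (counting interval 4.03 to 10.6). In the Lrrc15 subcluster both were present, Pdgfra at 189 and Pdgfrb at 151 CPM.

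**Figure D2:**
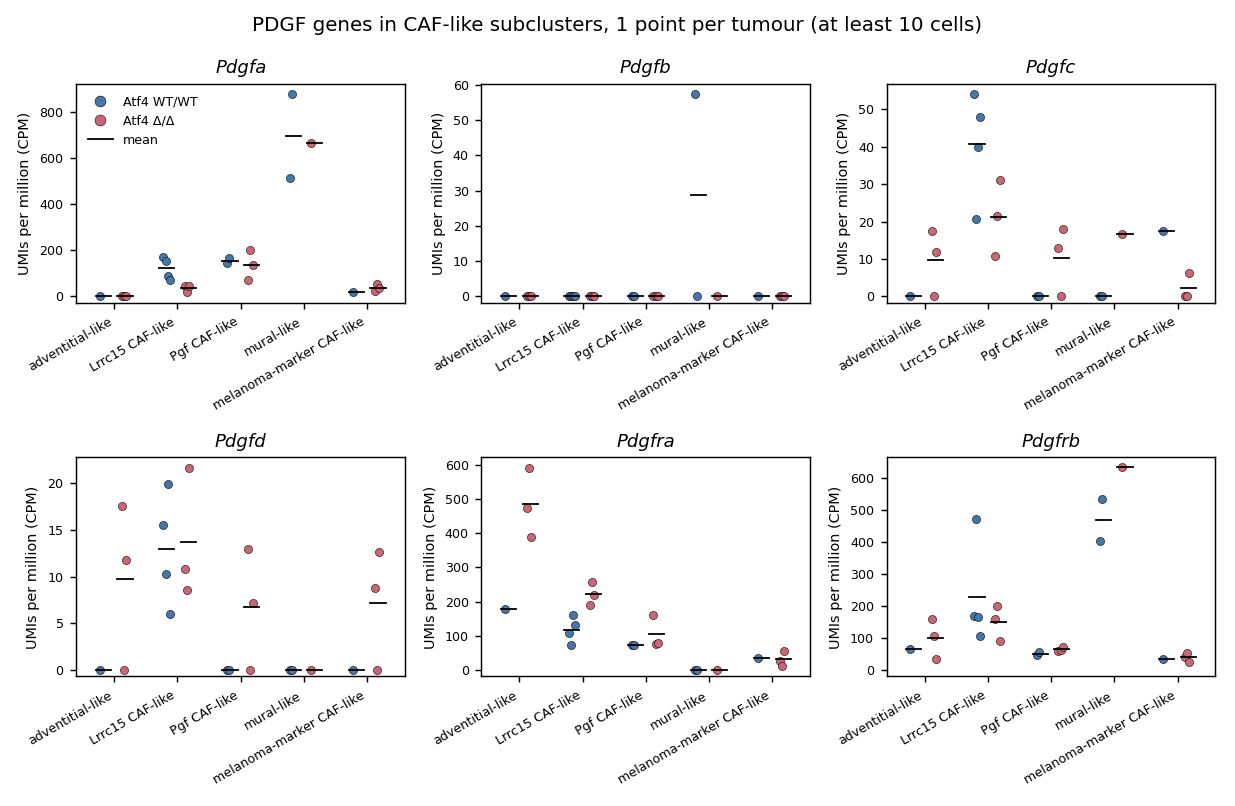
Levels of the 6 genes (y axis, CPM, linear) in the 5 CAF-like subclusters. Each point is a tumour with at least 10 cells of the subcluster, the line is the mean, and colours give the host genotype; Pdgfra was 0 in mural-like cells and Pdgfa was 0 in adventitial-like cells.

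Mural-like cells also had the highest Pdgfa of any cells described here. In the 3 tumours with at least 10 such cells it was 517, 881 and 668 CPM, a mean of 689 ± 183 CPM. Adventitial-like cells held 0 Pdgfa UMIs in 73 cells of 7 tumours, which, set at 3 counts, allows up to 11.4 CPM. The pooled level of mural-like cells, 644 CPM, was at least 56.5-fold higher, a bound that leaves out its own counting error. The Pgf subcluster followed with 144 ± 47.9 CPM (SD, n = 5), higher than the other CAF-like cells of the same tumour in 5 of 5, and the Lrrc15 subcluster had 84.7 ± 58.0 CPM (n = 7). Among the CAF-like subclusters Pdgfc was highest in that led by Lrrc15, 32.3 ± 15.8 CPM and above the other CAF-like cells in 7 of 7 tumours, and Pdgfra was above them in 7 of 7.

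With so few tumours holding each subcluster, exact sign-flip tests over tumours on log2(CPM + 10) could not go below p = 0.0156 with 7 tumours or 0.0625 with 5, and 0 of 30 pairs of gene and subcluster passed after adjustment. The values for Pdgfc and Pdgfra in the Lrrc15 subcluster were at the smallest p that 7 tumours can give (exact two-sided p = 0.0156, adjusted p = 0.234). Likewise, of 58 neighbouring pairs in the orders of levels over 11 cell groups, 0 differed beyond their spread after adjustment (smallest adjusted p = 0.604, exact two-sided sign-flip test). The order for Pdgfra ran from adventitial-like cells (409 ± 174 CPM, n = 4) over the Lrrc15 (162 ± 64.3, n = 7) and Pgf subclusters (92.5 ± 39.0, n = 5) to cells with melanoma markers (32.3 ± 19.3, n = 4).

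Among single CAF-like cells, 203 had a UMI of Pdgfra only, 166 of Pdgfrb only, 104 of both and 257 of neither. In mural-like cells 46 of 55 had a Pdgfrb UMI and 0 had a Pdgfra UMI, which allows a share of cells with a UMI of up to 5.45% and does not limit the share of cells that express the gene. Of the 39 mural-like cells with Pdgfa, 34 also had Pdgfrb. Median depth differed, from 2600 UMIs in mural-like to 12303.5 UMIs in cells with melanoma markers, so cells were also thinned to 2000 UMIs each. Both receptors were then detected in 5.81% of Lrrc15 and 14.3% of adventitial-like cells, the reverse of their order unthinned (21.9 and 19.2%). Pdgfrb was detected in 63.9% of 36 mural-like, 21.1% of 327 Lrrc15, 20.6% of 63 adventitial-like and 12.8% of 141 Pgf cells. Pdgfra was detected in 49.2% of adventitial-like, 29.7% of Lrrc15, 19.9% of Pgf and 0% of mural-like cells, and Pdgfa in 75.0% of mural-like, 21.3% of Pgf and 8.56% of Lrrc15 cells. As a background, 0.19% of the 23682 melanoma-like cells had a Pdgfra UMI at a median depth of 10311.5 UMIs, and 0 of the 898 immune cells did at 1327, both unthinned.

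**Figure D3:**
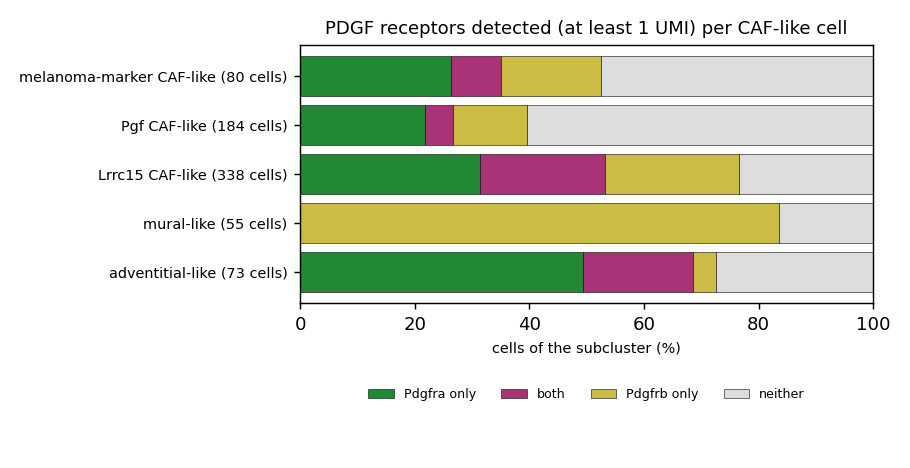
Share of cells (x axis, percent, not thinned) of each CAF-like subcluster with at least 1 UMI of Pdgfra only, Pdgfrb only, both or neither. Mural-like cells show Pdgfrb without Pdgfra, adventitial-like cells mostly Pdgfra, and 21.9% of the Lrrc15 subcluster both, which thinned to 2000 UMIs a cell is 5.81%.

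Pdgfa also varied among melanoma-like cells. Of their 10 clusters it was highest in the one led by Lgals3 (54.2 CPM, mean of 8 tumours) and in the one led by Espn, Car9 and Bnip3 (51.0 CPM), Car9 and Bnip3 being known to respond to low oxygen, and lowest in the one led by the mitotic genes Ube2c and Plk1 (15.3 CPM). In the Espn and Car9 cluster Pdgfa was 51.5, 39.1, 51.0 and 59.9 CPM in the Atf4 WT/WT tumours and 48.5, 53.5, 53.8 and 50.5 CPM in the Atf4 Δ/Δ tumours. It exceeded the other melanoma-like cells of its tumour (21.9 CPM) in 8 of 8 tumours, by 0.93 on the scale of log2(CPM + 10). The Lgals3 cluster did so in 8 of 8, by 0.87, and the clusters led by Ube2c, Mgll, Uhrf1 and Cenpa lay below in 8 of 8. Each of these 6 reached the smallest p that 8 tumours can give (exact two-sided p = 0.00781), which after adjustment over 60 pairs was 0.0521, just outside the threshold. At a higher clustering resolution the same 6 had an adjusted p of 0.0468. With 8 tumours the exact p cannot fall lower, so this shift reflects how many pairs reached it. Pdgfrb in melanoma-like cells was higher in the Grb14 cluster, 3.58 against 1.89 CPM, in 8 of 8 tumours (exact p = 0.00781, adjusted p = 0.0521).

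**Figure D4:**
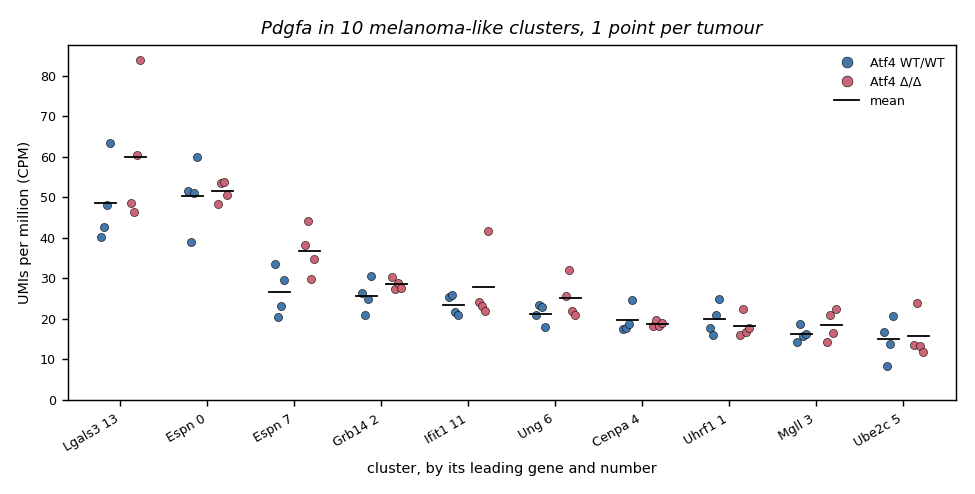
Pdgfa level (y axis, CPM, from 0) in the 10 melanoma-like clusters, named by leading gene and cluster number and ordered by mean. Each point is 1 tumour and lines are means by host genotype; the Lgals3 and Espn 0 clusters average 54.2 and 51.0 CPM and the Ube2c cluster 15.3 CPM.

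Between host genotypes, no member changed past the threshold in CAF-like, melanoma-like or immune cells. Few genes were called at all. In CAF-like cells it was 0.0431% of 4638 (0.0216% higher and 0.0216% lower in Atf4 Δ/Δ hosts; 301 genes at an unadjusted p under 0.05), and 0 of the 3 members with enough counts to be tested. In melanoma-like cells it was 0.0319% of 12556 (0.0239% higher, 0.00796% lower), and 0 of 2 members. In immune cells it was 0.0306% of 3267, and no member had enough counts. Nor did the tumours of both genotypes separate without overlap for any member in these classes, as they did for 4.08% of genes in CAF-like cells (1.64% higher, 2.44% lower), 6.54% in melanoma-like cells (5.3% higher, 1.24% lower) and 6.46% in immune cells (2.6% higher, 3.86% lower). In CAF-like cells Pdgfra was higher in Atf4 Δ/Δ tumours by 0.70 ± 0.24 on the log2 scale (159 ± 32.0 against 103 ± 41.3 CPM, SD, n = 4 each, edgeR adjusted p = 0.62). An exact permutation over the 70 assignments of tumours gave p = 0.0571 for Pdgfra, where the smallest possible is 0.0286. Pdgfa was lower by a log2 difference of −0.96 ± 0.40 (adjusted p = 0.73) and Pdgfrb by −0.58 ± 0.35 (adjusted p = 0.86). With every gene of at least 1 count kept, which called 0.661% of 15433 genes (0.402% higher, 0.259% lower), Pdgfa passed (−0.94, adjusted p = 0.017). Pdgfc, with too few counts for that test, averaged 22.6 ± 9.24 CPM in CAF-like cells with intact host Atf4 against 10.3 ± 8.94 CPM after excision (SD, n = 4 each, exact two-sided permutation p = 0.0857). In melanoma-like cells Pdgfa differed by 0.14 ± 0.07 (edgeR adjusted p = 0.48). The ligands in immune cells overlapped between genotypes, Pdgfa at 34.1 ± 12.1 and 35.8 ± 14.0 CPM and Pdgfb at 13.3 ± 8.22 and 18.0 ± 9.96 CPM, Atf4 WT/WT hosts given first (SD, n = 4 each).

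The mural-like cells, which held Pdgfa and Pdgfrb but no Pdgfra, ranged from 0 to 33.3% of the CAF-like cells. Their share averaged 14.1 ± 14.2% with intact host Atf4 and 7.26 ± 9.08% after its excision (SD, n = 4 each, exact two-sided permutation p = 0.543). Atf4 WT/WT replicate 2, with the highest Pdgfrb, had the 33.3%, but its Pdgfrb was also high in the 19 Lrrc15 cells (474 CPM, 46 UMIs, against 108 to 170 CPM in the other 3 Atf4 WT/WT tumours), while its mural-like cells were at 402 CPM (21 UMIs). All 10 mural markers were detected in each CAF-like sum of the Atf4 WT/WT tumours and 5 to 10 in those of the others, and they summed to between 727 and 3152 CPM in the former and between 371 and 948 CPM in the latter. The 10 melanoma markers summed to between 2137 and 5533 CPM and between 1127 and 4428 CPM. Their part in the class values was not tested, other than by setting the subclusters apart. The Lrrc15 subcluster was therefore also examined on its own, chosen after its values were seen. There Pdgfa was 170, 154, 89.8 and 71.9 CPM in Atf4 WT/WT tumours and 43.1, 17.1 and 46.1 CPM in Atf4 Δ/Δ replicates 1, 2 and 4, without overlap, and Pdgfra was 108, 72.1, 160 and 132 CPM against 190, 257 and 218 CPM, also without overlap. Atf4 Δ/Δ replicate 3, with 4 such cells, was left out. Its cells held 2 UMIs of Pdgfa and 2 of Pdgfra, 120 CPM each. Both values lie within the Atf4 WT/WT range, so with this tumour the genotypes would overlap for both genes. Tumours separated in 8.82% of 3299 genes (4.06% higher, 4.76% lower). The log2 differences were −1.53 ± 0.35 for Pdgfa (adjusted p = 0.0608) and 0.87 ± 0.24 for Pdgfra (adjusted p = 0.14), neither past the threshold, where 0.606% of genes were called (0.455% higher, 0.152% lower). For Pdgfrb the difference was −0.55 ± 0.40 (adjusted p = 0.78). Leaving out Atf4 WT/WT replicate 4 brought Pdgfa to an adjusted p of 0.0464, and no other single omission did. The Pgf subcluster, tested over 5 tumours, gave a Pdgfa log2 difference of −0.29 ± 0.51 (edgeR adjusted p = 0.99). It ranged from −0.52 to 0.01 with 1 Atf4 Δ/Δ tumour left out. Pooled over tumours, Pdgfa in mural-like cells was 632 CPM with intact host Atf4 (60 UMIs) and 659 CPM after its excision (48 UMIs). This last difference was not tested.

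An interaction term asked whether the genotype difference of Pdgfa was alike in CAF-like and melanoma-like cells. It was more negative in CAF-like cells by a log2 difference of −1.08 ± 0.25 (adjusted p = 0.0103, 0.45% of 13325 genes called, 0.218% higher and 0.233% lower). This rested on single libraries: without Atf4 WT/WT replicate 2 it was −0.73 (adjusted p = 0.45) and without Atf4 Δ/Δ replicate 1 it was −0.80 (adjusted p = 0.49), and, chosen after the data were seen, an exact permutation over the 70 assignments of tumours gave p = 0.343 for a difference of −0.68 on the scale of log2(CPM + 10). The 4 other members tested did not pass.

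Genes that act with the PDGF ligands and receptors were counted in 4 lists. Of 11 genes for ligand processing and binding, 9 were higher and 1 lower in CAF-like than in melanoma-like cells (median 5.12 on the log2 scale, against −0.13 for all genes, of which 26.9% were higher and 29.9% lower). The proprotein convertases Pcsk5, Pcsk6 and Furin were higher by 10.38 ± 0.29, 8.69 ± 0.59 and 1.87 ± 0.14. Plat, the tissue plasminogen activator that cleaves PDGF-C, was higher by 6.49 ± 0.17, and Plau, the urokinase that can cleave PDGF-D, by 5.69 ± 0.35. The endocytic co-receptor Lrp1, the matrix protein Sparc, the receptor-like Pdgfrl and Nrp1 were higher by 5.12, 4.19, 9.59 and 2.57, while Nrp2 was lower by a log2 difference of −1.19 ± 0.16.

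Of 24 genes of receptor-proximal signalling, 8 were higher and 1 lower (median 0.24), where 26.9% of all genes tested were higher and 29.9% lower, so the share higher was near that of all genes. Those higher included Pik3r1, a regulatory subunit of phosphoinositide 3-kinase (1.31 ± 0.21), Rasa1, Stat3, Crk, Fyn, Ptpn1 and Ptpn11 (from 0.36 to 1.04), and the adaptor Grb2 was lower (−0.52 ± 0.14). Of 13 immediate response genes, 12 were higher and 0 lower (median 2.90), against the same 26.9% and 29.9% of all genes: Ccl2 (9.75 ± 0.20), Ccl7, Has2, Fosl1, Egr2, Egr1 (5.55 ± 0.17), Junb, Ier3, Ier2, Fos, Jun and Myc (0.73 ± 0.14). Tissue dissociation is also known to induce several of these, and its part was not tested. Of 11 feedback inhibitors, beside the same shares of all genes, 8 were higher, from Errfi1 (5.17 ± 0.14), Cblb, Dusp1, Socs3, Spry4, Spry1 and Spred1 to Spry2 (1.14 ± 0.16), and Dusp6 (−0.57 ± 0.15) and Dusp4 (−0.56 ± 0.17) were lower (median 1.34).

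With the host genotype, 0 of the 42 genes of these lists tested in CAF-like cells passed, the list medians lying between −0.11 and 0.16 on the log2 scale. In melanoma-like cells Plat was higher in Atf4 Δ/Δ hosts by 1.11 ± 0.15 on the log2 scale (adjusted p = 0.044), the only 1 of 54 genes tested to pass. Plat did not keep this call with a marker gate in place of clusters or without Atf4 WT/WT replicate 1, where 0 genes passed. In the Lrrc15 subcluster Sparc, a matrix protein that can bind PDGF, was higher by 0.66 ± 0.13 (adjusted p = 0.029).

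Likeness of levels was taken over 48 sums of cell group and tumour, which share libraries. The 5 nearest genes were Gfpt2, Has1, Igfbp6, Cxcl12 and Dpt for Pdgfra (Pearson r from 0.96 to 0.97) and Aspn, Cacna2d1, Lama2, Adamts2 and Col6a3 for Pdgfrb (r from 0.92 to 0.95). For Pdgfa the nearest was Cspg4 (r = 0.83), a gene of pericytes and melanoma cells, followed by Trib2, Gm13889, Piezo2 and Pear1. For Pdgfb it was Gimap6 (r = 0.87), followed by Arhgap26, Hlx, Ednrb and Cd93. Only 1 of the 48 sums was of endothelial-like cells (Atf4 WT/WT replicate 1, Pdgfb at 203 CPM), so the Pdgfb values may rest on 1 tumour. Pdgfc was nearest to Lsp1 (r = 0.69) and Pdgfd to Apol9b (r = 0.81). These are descriptions over 12937 genes, among sums that include the cells in which each gene was high.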

How the data were processed

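The deposited files hold raw UMI counts per gene and barcode, which the authors made with Cell Ranger 3.1.0 on GRCm38 per the file headers and the submitters' processing notes; these also name Seurat 3.2.1. Cells with 200 to 5000 detected genes and at most 7.5% mitochondrial UMIs were kept. Seurat 5.3.0 merged the libraries of each genotype and integrated the merged sets of both genotypes after the study's methods (2000 variable genes, 20 components). The 6 members were left out, libraries within a genotype were not integrated with each other, and resolution 0.7 gave 17 clusters. No doublet caller was run. Classes were named from marker lists. Counts were summed per tumour and class with at least 10 cells and tested by edgeR's quasi-likelihood test (TMM, filterByExpr, Benjamini-Hochberg adjusted p under 0.05), with tumour as a block between classes. SE was taken from the F statistic. Recovery was tested on simulated data. Named genes were the 6 members and, in 4 pathway lists, those past the threshold or, if none, those with most UMIs; only some are named, and some genes are not reported here. The members and lists were chosen with earlier results of these data known. Alternatives were another size factor, DESeq2, no filter, a sex term, a replicate block, a marker gate and left-out tumours. p-values of genotype tests measure the spread between tumours, at most 4 of each genotype. Those between classes, subclusters or clusters measure the spread over tumours of differences within a tumour. Sequences are from RefSeq.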

Additional observations from a re-analysis of the deposited data

Results flagged for a closer look

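In CAF-like cells of Atf4 WT/WT replicate 2, several members lay far from the other 3 tumours of the genotype. Pdgfrb was 352 CPM there against 118 to 140, Pdgfb was 22.0 CPM against 0, and Pdgfc was 8.79 CPM against 26.6 to 28.4. Mural-like cells were 33.3% of the 51 CAF-like cells of this tumour. Its 19 Lrrc15 cells held 46 Pdgfrb UMIs (474 CPM, against 108 to 170 in the other 3) and its mural-like cells 21 (402 CPM). In immune cells, Pdgfa was 16 CPM in Atf4 WT/WT replicate 4 against 38.9 to 41.8 in the other 3, and Pdgfrb was 4.86 CPM in replicate 3, from 1 UMI, against 0. Of 36 groups of 4 tumours looked at, 5 were flagged, and chance flags about 1 in 20 for normally distributed values. For Pdgfb in CAF-like and Pdgfrb in immune cells the other 3 tumours were at 0. Any UMI in 1 tumour would then be flagged, so this rate does not apply to them. The genotype difference of Pdgfa was more negative in CAF-like than in melanoma-like cells by a log2 difference of −1.08 in edgeR's interaction test.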

How the results depend on the processing

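The higher levels of the 5 tested members in CAF-like than in melanoma-like cells, and of Pdgfb and Pdgfc in immune cells, kept direction and call under every alternative run. The class tests were not run without the count filter. Pdgfb, Pdgfc, Pdgfd and Pdgfra had passed it only through the class where they were high. Genotype counts were small and moved with the processing; the causes were not tested. In CAF-like cells the count of 2 genes became 102 with every gene of at least 1 count kept (1 of them a member, Pdgfa), 4 with DESeq2, 1 with tumours of at least 50 cells or without the subcluster of melanoma markers, 0 with sex as covariate, with a marker gate in place of clusters or without cells of high melanoma marker share, and 0 to 1 with 1 tumour left out. Chosen after seeing the data, the Lrrc15 subcluster alone gave 20 and the Pgf subcluster 0 (89 at an unadjusted p under 0.05 in edgeR). In melanoma-like cells the 4 genes became 46 without the filter, 120 with DESeq2, 0 with the gate and 0 to 21 with 1 tumour left out, without Atf4 Δ/Δ replicate 3 at the upper end. In immune cells the 1 gene became 83 without the filter, 0 with sex or the gate and 0 to 2 with 1 tumour left out, and in TAM-like cells the 2 became 19 and 0 to 5. Class differences within Atf4 WT/WT tumours alone called 4812 genes (CAF-like against melanoma-like), 3550 (immune against melanoma-like) and 1713 (CAF-like against immune), with fewer samples.

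The replicate block gave 0 genes in CAF-like, melanoma-like and immune cells. Same-numbered tumours correlated between −0.14 and 0.16 in CAF-like, −0.36 and −0.06 in melanoma-like and −0.31 and 0.21 in immune cells. In CAF-like cells numbers 1 and 4 (0.16 and 0.11) exceeded their highest correlation with another number (0.13 and 0.058). Number 4 did so in immune cells (0.034 against 0.029), and the remaining numbers did not. So few correlations cannot decide whether the numbers pair the samples, and the main tests did not pair by number.

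The interaction's 60 genes ranged from 26 to 98, and its members past the threshold from 0 to 1, with 1 tumour left out. Pdgfd there reversed to −0.10 by exact permutation and ranged from −0.21 to 0.74 with 1 tumour left out, Pdgfrb ranged from −0.69 to 0.15, the latter without Atf4 WT/WT replicate 2, and Pdgfrb in melanoma-like cells ranged from −0.23 to 0.20. Pdgfrb in immune against melanoma-like cells passed without Atf4 WT/WT replicate 3, which held the single immune UMI. Pdgfrb in adventitial-like cells turned to 0.10 at a finer subclustering. At a higher resolution 10 pairs of member and melanoma-like cluster passed in place of 0, with the smallest exact p fixed by the number of tumours. Signs changed there for Pdgfa in Grb14 2 (−0.11) and Ifit1 11 (0.011), Pdgfrb in Espn 7 (0.068) and Mgll 3 (−0.013), Pdgfb in Espn 0 (0.0012) and Mgll 3 (0.0086), Pdgfd in Ifit1 11 (−0.00029) and Pdgfra in Uhrf1 1 (0.0027). Few CAF-like cells per tumour, 10 in 1 of them, limit what the genotype comparison can show.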
